A study of Mus musculus with 12 samples.

Results

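Mouse genes named Zfp with a number encode zinc finger proteins, most of them of the C2H2 kind, in which pairs of cysteine and histidine residues hold a zinc ion so that a short loop of protein can read bases of DNA. The members described here were chosen by symbol (Zfp followed by a number, leaving out Zfp42) and by level: the authors' mean exonic value had to be at least 100 in both wild-type groups. Of 346 such genes in the deposited tables, 265 met this threshold and 81 lay below it, out of 18412 genes in all. The wild-type exonic values thus chose the members, so their exonic knockout-to-wild-type ratios are given as a description, with no test of the members in exons, while intronic values took no part in the choice and were tested.

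The study sequenced polyadenylated RNA, keeping strand, from mouse embryonic stem cells cultured on gelatin in medium that held serum and the cytokine LIF. There were 12 libraries in 4 groups of 3. A Dicer1-/- line was set against the wild-type line TFC, and a Dgcr8-/- line against the wild-type line V6.5. All 4 groups had the same culture and no further treatment is named in the labels. Each group is 1 cell line, so the lost factor and whatever else separates 1 line from another cannot be told apart, and the labels do not say that the 3 libraries came from separate cultures. The spread behind each p-value below is that of these libraries only, and it may be technical.

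Many C2H2 genes also carry a KRAB box, a stretch that binds Trim28 and through it the histone methyltransferase Setdb1. In embryonic stem cells this complex keeps many transposable elements and imprinted loci silent, and Zfp57 and Zfp445 are the KRAB proteins known for holding imprints. Such genes lie in clusters of recent copies on a few chromosomes. Dgcr8 helps Drosha to cut primary microRNA transcripts in the nucleus, and Dicer cuts the resulting hairpins, so cells without either lack most mature microRNAs. A microRNA finds its targets mainly through its seed, bases 2 to 8, which pairs with a complementary run in the 3′ UTR. The coding repeats of C2H2 genes have also been described as sites for miR-181.

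The seeds of 5 microRNA families (miR-294, miR-17, miR-181, miR-16 and let-7) were searched for in the members. The first 3 are shown, because miR-294 and miR-17 belong to leading families of embryonic stem cells and miR-181 pairs with finger-coding repeats. The mature sequences below are those of RefSeq (GRCm38.p6), with the seed in capitals. The seed of miR-294 is shared by miR-302b, and that of miR-17 is the same run shifted by 1 base, so their sites share the letters GCACTT.
miR-294-3p: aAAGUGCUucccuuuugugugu
miR-302b-3p: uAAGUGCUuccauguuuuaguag
miR-17-5p: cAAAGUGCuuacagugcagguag
miR-181a-5p: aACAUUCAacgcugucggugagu

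The matching run for miR-181, TGAATGT, was read on the sense strand of the coding sequence of GENCODE vM21 transcripts. It occurred in 154 of the 265 members (58.1%) and in 12.4% of 9053 other genes at the same threshold. Per length this was 1.29 matches per kb of coding sequence in the members and 0.083 in the other genes. Of 672 matches in members, 651 (96.9%) had their last 3 letters in the reading frame, as a cysteine codon, and 591 (87.9%) put that codon on the first or second cysteine of a finger matched by pattern. Zfp994, with 16 matches, held the most. A stretch of its coding sequence (chr17:22201172-22201423, minus strand, GRCm38) and one of Zfp987 in a cluster on chromosome 4 (chr4:146124714-146124965, plus strand), which has 14 matches, show how the run can return from finger to finger. Both stretches were picked for holding the most matches in their gene. Of the 672 matches, 313 (46.6%) lay at the first cysteine of a finger and 278 (41.4%) at the second, as in both stretches below. Of the 2907 fingers in all members, 9.56% held the run at the second cysteine. Capitals mark the miR-181 matches.
Zfp994: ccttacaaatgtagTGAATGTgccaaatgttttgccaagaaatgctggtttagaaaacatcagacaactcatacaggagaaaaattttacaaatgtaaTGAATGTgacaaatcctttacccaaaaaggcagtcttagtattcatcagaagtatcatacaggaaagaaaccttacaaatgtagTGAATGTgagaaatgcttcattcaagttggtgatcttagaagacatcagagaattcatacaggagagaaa
Zfp987: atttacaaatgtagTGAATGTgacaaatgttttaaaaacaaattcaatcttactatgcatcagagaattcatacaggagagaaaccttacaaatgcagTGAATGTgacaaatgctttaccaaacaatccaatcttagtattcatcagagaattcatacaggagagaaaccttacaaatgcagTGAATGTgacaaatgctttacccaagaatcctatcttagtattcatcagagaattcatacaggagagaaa

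The run for the miR-294 family, AGCACTT, occurred in the 3′ UTR of 52 members (19.6%) and of 16.7% of the other genes. Of the 8 members with the highest exonic ratios, 6 held it, and of the 8 with the lowest, 0. Those 6 sites, each the first of its gene, are shown because the highest ratios described further on belong to these genes. Capitals mark the match. Their positions on GRCm38 are chr17:21747951-21747980 (plus strand) for Zfp229, chr13:64134990-64135019 (minus) for Zfp367, chr8:79191968-79191997 (plus) for Zfp827, chr3:9434434-9434463 (minus) for Zfp704, chr16:33498235-33498264 (plus) for Zfp148 and chr19:12767302-12767331 (minus) for Zfp91.
Zfp229: cctttaatccaAGCACTTgggtcagggagg
Zfp367: ttctcacaggaAGCACTTtgtgaataagac
Zfp827: agtttctgtgcAGCACTTtattgcggcagg
Zfp704: aagatgaggttAGCACTTttaggtaccagt
Zfp148: agttgacatagAGCACTTagaattaatctg
Zfp91: catcagcatagAGCACTTggacctcccttg
A match is a description of the letters in the annotated transcript, and binding was not measured.

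The deposited tables hold group means of normalised reads, from which the whole reads of each library were recovered (called A, B and C within a group). Each library held 5869622 to 30807111 reads in exons and 559057 to 5597604 in introns. Library A is the one that correlated least with the other 2 on log2 exonic values, over genes with a mean of at least 10 in its group. Over all recovered genes, the mean correlation in TFC was nearly the same for A (0.888) and B (0.889), with 0.894 for C. The targeted transcripts were lower in the matching line, Dicer1 with means of 1590 against 3239 and Dgcr8 with 804 against 2528, although neither passed limma (adjusted p = 0.0756 and 0.11). Of 8 stem cell markers (Pou5f1, Nanog, Sox2 and others), 7 had a higher exonic mean in Dgcr8-/- than in V6.5 (median log2 ratio 0.86). Limma called 0 of the 6 tested in exons, where 0.747% of all genes rose. Tdgf1 and Dppa5a were not tested there, because their Dgcr8-/- library values were not recovered. In introns 6 of the 8 had a higher mean (median 1.01). Of the 7 tested in introns 1, Nanog, was called higher (limma adjusted p = 0.0493), where 1.11% of all genes rose. In the Dicer pair 4 were higher and 4 lower in exons. Of 9 fibroblast markers, 8 had a lower exonic mean in Dgcr8-/- than in V6.5 (median log2 ratio -4.17). Limma tested 8 of the 9 and called 3 lower, where 0.511% of all genes tested fell. In introns 2 were tested and 1, Acta2, was called lower (limma adjusted p = 0.0246), where 0.409% of all genes fell. The summed exonic value of the 9 was 492 to 1364 in Dgcr8-/- against 5683 to 12991 in V6.5. In Dicer1-/- it was 380 to 593 against 388 to 748 in TFC, but Tagln made up most of the knockout sum (means of 430 and 104). The other 8 were lower in Dicer1-/-, 4 of them at 0 in all 3 knockout libraries (median log2 ratio of the 9, -2.85). Limma tested 8 of the 9, all but Lum, in Dicer exons and called 0, where 1.02% of all genes rose and 0.228% fell. The part of these markers in the results below was not tested, and in these bulk samples fewer cells of a type and less RNA per cell cannot be told apart.

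By translated coding sequence, 119 members had both a KRAB box and C2H2 fingers, 139 had C2H2 fingers without a KRAB match, and 7 had no C2H2 match, among them Zfp36, a CCCH protein that speeds decay of AU-rich mRNAs. A member held up to 36 fingers, with a median of 12 in the KRAB class and 9 in the class without KRAB. The classes follow a pattern and not curation: Zfp57 falls in the class without a KRAB match although it is known as a KRAB protein. The members are densely clustered, with 64 on chromosome 7, 36 on chromosome 17 and 24 on chromosome 13, and 185 of 265 started within 1 Mb of another.

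As exonic value per kb of exon, the median member stood at 229 in TFC and 125 in V6.5, below the medians of the other genes (318 and 240). In TFC the highest per kb were Zfp979, Zfp207, Zfp106, Zfp980, Zfp57 and Zfp981. In V6.5 they were Zfp207, Zfp106, Zfp979, Zfp57, Zfp568 and Zfp330. Zfp207, a kinetochore protein that binds microtubules, and Zfp106, an RNA-binding protein needed in motor neurons, are members whose fingers are few. Zfp106 had the highest exonic value of all members before correction for length, 28729 in TFC and 16893 in V6.5 as the authors' means. Just inside the threshold lay Zfp712 and Zfp971, whose lower wild-type values were 101.5 and 102.1, and just outside lay Zfp560 and Zfp341, with 97.3 and 98.1.

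In the Dicer pair, most members had a lower exonic mean in the knockout. Of 265, 193 were lower and 72 higher, with a median log2 ratio of -0.30, where the 9094 other genes at the threshold had 4890 lower and a median of -0.05. The KRAB class stood lowest: 100 of 119 were lower, with a median of -0.45, and 23 lay below a log2 ratio of -1 while 1 lay above 1. Members without a KRAB match had a median of -0.19, with 7 below -1 and 6 above 1. The same direction appeared in 15 of 16 other KRAB genes with C2H2 fingers that bear other names (median -0.75). By limma, 1.02% of all genes tested rose and 0.228% fell in Dicer exons. Knockout and wild-type libraries did not overlap in 15 members that were higher (5.68%) and 34 that were lower (12.9%), against 11.7% and 9.65% of all genes. Nothing is read from these exonic counts, since wild-type exonic values chose the members.

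In the Dgcr8 pair the exonic ratios of the same genes centred near 0. Of 265, 148 were higher and 117 lower, with a median of 0.08 against -0.04 in the other genes. The KRAB class had 65 higher and 54 lower (median 0.09), and the class without KRAB 81 higher and 58 lower (median 0.08). The 16 KRAB genes with C2H2 fingers that bear other names had 6 higher and 10 lower (median -0.28). The limma background in these exons was 0.747% of all genes higher and 0.511% lower. Groups did not overlap in 22 members that were higher and 14 that were lower (8.30% and 5.28%), against 10.6% and 11.9% of all genes.

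**Figure D1:**
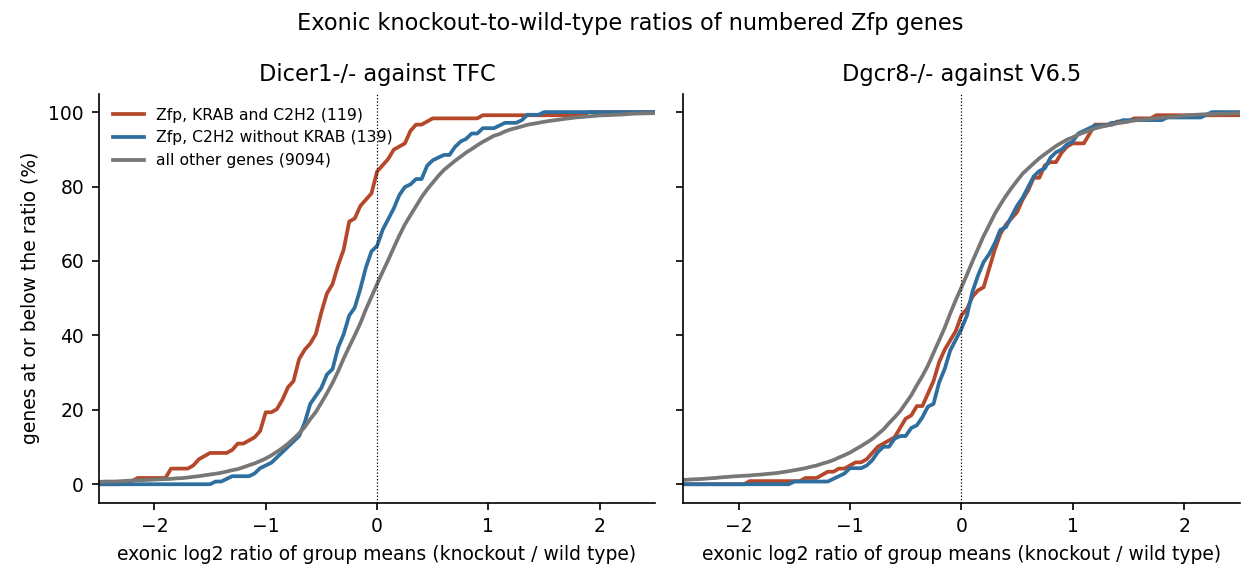
Cumulative share of genes (vertical axis, %) at or below each exonic log2 ratio of group means (horizontal axis) for the KRAB class, the class without KRAB and all other genes at the threshold, in the Dicer pair (left) and the Dgcr8 pair (right). In the Dicer pair the KRAB curve lies furthest left, with a median of -0.45, and in the Dgcr8 pair both classes lie slightly to the right of the other genes, with medians of 0.09 and 0.08 against -0.04.

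Gene by gene, the 2 pairs, which share no library, split the members unevenly. Both knockouts were lower for 106 members and both were higher for 61. Another 87 (32.8%) were lower in Dicer1-/- and higher in Dgcr8-/-, and 11 (4.15%) were the reverse, where the other genes had 16.1% and 15.1%. In the KRAB class, 48 were lower in Dicer1-/- and higher in Dgcr8-/- and 2 were the reverse. Across the 265 members the exonic ratios of the pairs had a Pearson r of 0.44, and across the other genes 0.52, a description in which genes are not independent and ratios share libraries within a pair.

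Library A stood apart for these genes in every group, and the Dgcr8 direction was that of B and C. Without Dgcr8-/- library A the Dgcr8 exonic median was 0.23 with 94 members lower, without Dgcr8-/- library B it was -0.02 with 139 lower, and without Dgcr8-/- library C -0.04 with 137 lower. As a log2 difference from the mean of B and C, the median exonic value of the members in A was -0.38 in Dicer1-/-, -0.60 in TFC, -1.07 in Dgcr8-/- and -0.44 in V6.5, while that of the other genes was between -0.06 and 0.03. Between 191 and 205 members were lower in A in each group. In introns the medians were 0.26, 0.20, -0.14 and 0 in the same order, and the KRAB class in Dgcr8-/- stood at -0.49.

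With libraries B and C alone, the Dgcr8 exonic median was 0.16 and 103 members were lower; with A alone it was -0.38 and 187 were lower. In the Dicer pair the median was -0.35 from B and C and -0.20 from A, with 186 and 168 of 264 lower, so the direction was the same in both. Within the KRAB class the Dgcr8 median was 0.23 from B and C and -0.49 from A. The letter A was given from the values, the labels name no batch, and what sets these libraries apart was not tested.

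**Figure D2:**
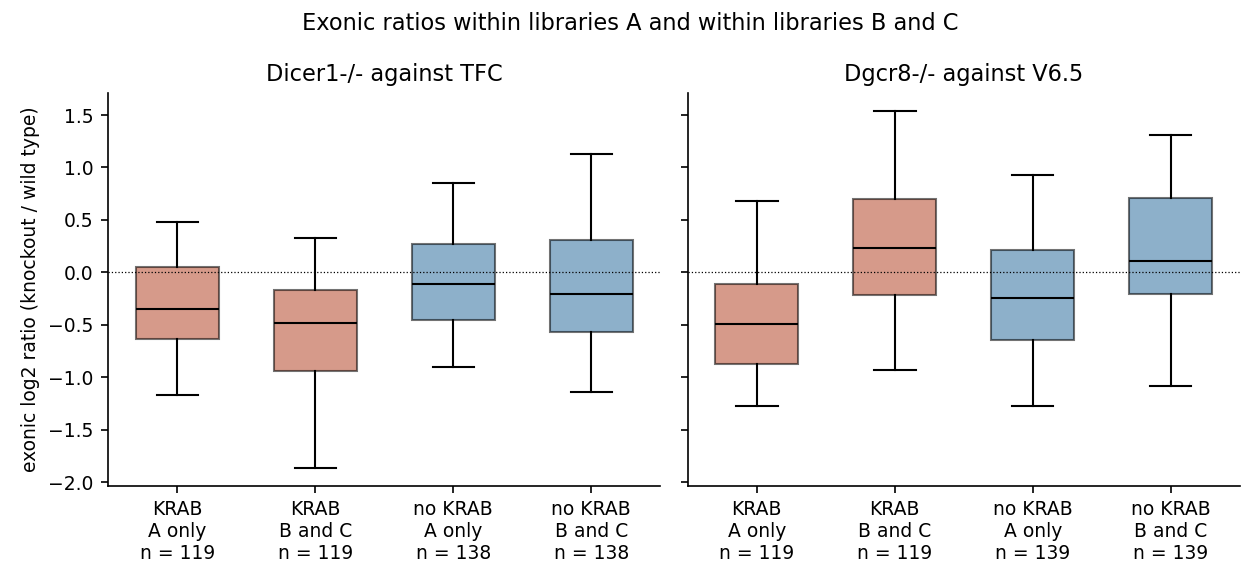
Exonic log2 ratio of each member (vertical axis) computed within libraries A or within libraries B and C, by class, in both pairs. Boxes span the quartiles with the median as a line and whiskers reach the 5th and 95th percentile; in the Dgcr8 pair the KRAB median is -0.49 in A and 0.23 in B and C, and in the Dicer pair it is below 0 in both.

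Among the members with the highest exonic ratios in both pairs, Zfp229 came first (log2 ratio 1.85 in Dicer and 2.54 in Dgcr8). This KRAB gene on chromosome 17 with 16 fingers read 3263, 7252 and 6932 in Dicer1-/- against 722, 2214 and 1898.5 in TFC (values are given in the order A, B, C throughout). In Dgcr8-/- it read 1101, 4955 and 5484, and in V6.5 447, 553 and 979. The groups did not overlap in either pair, and within each group except V6.5 library A was far below B and C.

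Zfp367, which activates cell-cycle genes, followed with 1.32 and 2.18. Its exonic values were 3217, 4523 and 4605 in Dicer1-/- against 1149 (A), 2034 (B) and 1758 (C) in TFC. They were 1454, 3605 and 4129 in Dgcr8-/- against 645, 519 and 862 in V6.5. Every knockout library lay above every wild-type library of its pair.

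Zfp827, which recruits the NuRD complex to telomeres, had a narrower spread. It read 1246, 1220 and 1410 in Dicer1-/- and 439, 456 and 475 in TFC (log2 ratio 1.5). In the Dgcr8 pair it read 710, 1171 and 987 against 193, 419 and 451 (log2 ratio 1.43). Libraries of the 2 genotypes stayed apart in both pairs, and Zfp827 lies on chromosome 8, where the other genes were lower in both knockouts (below).

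The other 5 of the 8 highest were Zfp704 (0.92 and 1.82), Zfp148 (1.29 and 1.19), Zfp951 (0.16 and 2.23), Zfp93 (0.92 and 1.31) and Zfp91 (1.06 and 1.02). Zfp148 is a GC-box binding factor, and Zfp91 a ubiquitin ligase. Of these 8 genes, 1 had a KRAB match. Zfp951 differed from the rest in that its TFC libraries (922, 2645 and 1778) overlapped those of Dicer1-/- (1219 in A, 2606 in B and 2149 in C), while Dgcr8-/- (522, 1973 and 2054) lay above V6.5 (368, 269 and 332).

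At the low end, 6 of the 8 members were KRAB genes. Zfp946 had the lowest mean ratio, -2.16 in Dicer and -1.93 in Dgcr8. It read 143, 211 and 143 in Dicer1-/- and 442, 1077 and 710.5 in TFC, with no overlap, and 31.7, 117 and 125 in Dgcr8-/- against 107, 263 and 676 in V6.5, where the lowest V6.5 library lay within the knockout range. Zfp239, with 7 fingers and no KRAB match, read 246, 377 and 218 in Dicer1-/- against 703, 858 and 794 in TFC, and 209, 173 and 235 in Dgcr8-/- against 353, 269 and 434 in V6.5. It was lower without overlap in both pairs (-1.48 and -0.77).

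Zfp764 (-2.27 and -0.99), Zfp39 (-1.54 and -1.25), Zfp938 (-1.86 and -0.57), Zfp286 (-0.80 and -1.40), Zfp593 (-0.92 and -1.09) and Zfp958 (-1.70 and -0.29) made up the rest. Zfp764 was listed at 0 in 1 Dicer1-/- library. Zfp593 ran against the other members by library: A read 427 in Dicer1-/-, 693 in TFC, 376 in Dgcr8-/- and 724 in V6.5, above B and C of every group (64.0 to 247).

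**Figure D3:**
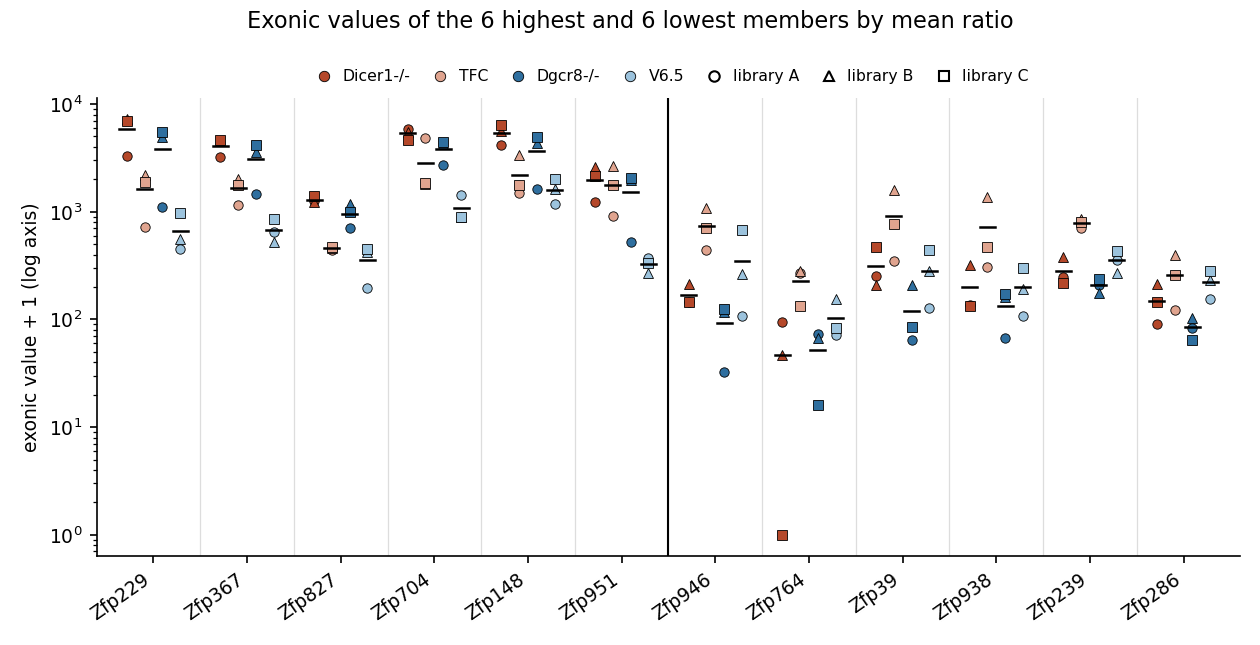
Exonic value plus 1 (log axis) of the 6 members with the highest mean ratio (left of the line) and the 6 with the lowest (right), for each library (circle A, triangle B, square C) and group (colour), with the authors' group mean as a bar. Zfp229, Zfp367 and Zfp827 show no overlap between knockout and wild type in either pair, and Zfp946 shows none in the Dicer pair.

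Members known for silencing did not share a direction. Zfp57 read 7162, 8966 and 9385 in Dicer1-/- against 4722, 7725 and 6649 in TFC, which overlap, and 4712, 6146 and 5953 in Dgcr8-/- against 4068, 2318 and 2364 in V6.5, which do not (0.42 and 0.94). Zfp445, the other imprint regulator, had ratios of -0.45 and -0.20 with overlap in both pairs. Zfp568, which represses placental Igf2 transcripts, was higher without overlap in both, with 0.32 and 0.41.

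Zfp809, which silences retroviruses primed by proline tRNA, had -0.37 and 0.62. Zfp708 had -0.34 and 1.01, Zfp819 -0.28 and 1.16, and Zfp932 -0.88 and 0.10. These 4 were lower in the Dicer pair and higher in the Dgcr8 pair, though only Zfp932 in Dicer and Zfp819 in Dgcr8 had groups without overlap.

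Of the members known from stem cell or developmental regulation, Zfp462 had ratios of 0.08 and 0.60, Zfp217 0.58 and 1.12, and Zfp423 -0.39 and 0.32. Zfp281, a regulator of pluripotency exit, stood at -0.56 and -0.28, and Zfp143, a factor bound at many promoters, at -0.40 and -0.03. Zfp217, part of a corepressor complex, read 3581, 2974 and 3032 in Dgcr8-/- against 1864, 1080 and 1452 in V6.5, without overlap. Zfp296, a Klf4-interacting protein, was read mainly in library A: 1866 in Dgcr8-/- and 980 in V6.5, where B and C held 49.4 to 105, so its ratio of 0.84 is that of A. Zfp36 stood at 0.40 and -0.41, and Zfp106 at -0.66 and -0.13; in TFC no single solution gave the libraries of Zfp106.

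Intronic reads of polyadenylated RNA come from transcripts not yet spliced, retained introns and anything else read on that strand within the intron. Of the members, 243 in the Dicer tables and 227 in the Dgcr8 tables had a mean intronic value of at least 10 over 6 libraries and were tested. Their median intronic log2 ratios over all 265 were -0.09 and -0.08, against 0.00 and -0.02 in the other genes. In Dicer introns limma called 0 members in either direction, where 0.275% of all genes rose and 0.0774% fell, and 17 members, 7.00% against 10.1% of all genes, had an unadjusted p under 0.05 (8 higher, 9 lower). Groups did not overlap in 15 members that were higher and 16 that were lower, 6.17% and 6.58%, against 9.27% and 7.99% of all genes. A fit by limma-voom on the recovered reads called 1, Zfp57, higher (0.412% of members against 0.439% of all genes).

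In Dgcr8 introns limma called 1 member higher, Zfp951, and 0 lower, where 1.11% of all genes rose and 0.409% fell. At an unadjusted p under 0.05 there were 14 higher and 12 lower, 11.5% of members against 14.5% of all genes. Groups did not overlap in 22 members that were higher and 18 that were lower (9.69% and 7.93%), against 9.61% and 10.1% of all genes. A term for library A, a letter given from the values, was added after the data were seen. So were the fits from libraries B and C only and by limma-voom. With the term, 8 members were called higher (Zfp57, Zfp93, Zfp600, Zfp827, Zfp936, Zfp951, Zfp980 and Zfp982) and 0 lower. The 8 were 3.52% of members, against 2.61% of all genes higher and 1.59% lower. From libraries B and C only, 7 members were higher (3.14% against 1.44% of all genes), and limma-voom called 3 (1.32% against 0.847%). The share of members called higher thus lay below that of all genes in the first fit (0.441% against 1.11%) and above it in these 3 fits. It lay above as well with a pseudocount of 4 (1.76% against 1.48%) or without Dgcr8-/- library A (1.75% against 1.18%). With libraries centred on their median it lay below (0.881% against 1.19%). These differences were not tested.

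Zfp951, on chromosome 5 (chr5:104813169-104860070, minus strand, GRCm38), encodes 10 fingers. Its intronic values were 239, 627 and 608 in Dgcr8-/- and 77.0, 63.4 and 39.9 in V6.5. Every knockout library lay above every V6.5 library, and the log2 fold change was 2.93 ± 0.44 (SE, n = 3 and 3; limma adjusted p = 0.00377). Leaving out 1 library at a time gave adjusted p from 0.00129 to 0.0749, and without Dgcr8-/- library B the call was lost. It was lost as well without the variance trend (limma adjusted p = 0.0769). In the Dicer pair its intronic values were 854, 906 and 591 against 330, 645 and 615, which overlap, with a log2 fold change of 0.60 ± 0.32 (limma adjusted p = 0.534). The difference between the 2 effects did not pass the test (limma adjusted p = 0.329).

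Zfp57 had high intronic values in all groups, 5304, 6277 and 6520 in Dicer1-/- against 2747, 3722 and 3520 in TFC, and 3903, 3794 and 3880 in Dgcr8-/- against 2464, 826 and 1220 in V6.5. Knockout libraries lay above wild-type libraries in both pairs. The log2 fold changes, 0.86 ± 0.28 and 1.51 ± 0.39, missed the threshold (limma adjusted p = 0.29 and 0.0729). Zfp936, a KRAB gene on chromosome 7, read 81.1, 152 and 171 in Dgcr8-/- introns against 29.6, 7.74 and 18.7 in V6.5, with 2.89 ± 0.68 (limma adjusted p = 0.0507). Zfp827 introns were 261, 381 and 395 against 101, 128 and 156 in the same pair, with 1.42 ± 0.34 (limma adjusted p = 0.057). Zfp367, for which exons stood apart so clearly, had intronic log2 fold changes of -0.19 ± 0.29 and -0.17 ± 0.36, with adjusted p of 0.827 and 0.878 by limma.

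In a single cluster on chromosome 4 (chr4:145670685-147848366, GRCm38), 10 members were lower together in Dicer1-/- and mostly higher in Dgcr8-/-. They are Zfp980, Zfp987, Zfp600, Zfp981, Zfp991, Zfp982, Zfp985, Zfp979, Zfp984 and Zfp933, of which 9 have a KRAB match. In Dicer exons 10 of 10 were lower, with a median of -1.15, and in Dgcr8 exons 9 of 10 were higher, with a median of 0.76. Introns had the same directions, with 10 of 10 lower in the Dicer pair (median -0.64) and 8 of 10 higher in the Dgcr8 pair (median 0.75). In Dgcr8 introns this too was the direction of B and C, with a median of 1.12, while A alone gave -0.08 with 6 of 10 lower. Rex2, a KRAB gene with another name inside the span, had exonic ratios of -1.69 and 1.38. The copies in this cluster are alike, so the authors' counting may have split or shared their reads, and the 10 values are not independent.

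Zfp980 shows the pattern by library. Its exonic values were 3431, 6316 and 5669 in Dicer1-/- and 5078, 16559 and 15873 in TFC. In Dgcr8-/- they were 2150, 11400 and 11341, and in V6.5 2397, 3258 and 3872. The A libraries were low in TFC and in Dgcr8-/-, so the groups overlapped in both pairs, while B and C stood apart.

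From libraries A alone, the cluster's Dgcr8 exonic median was -0.58 with 9 of 10 lower; from B and C it was 1.05 with 1 of 10 lower. The Dicer median was -0.60 from A with 8 of 10 lower and -1.24 from B and C with 10 of 10 lower. The Dgcr8 direction of the cluster in exons is therefore that of B and C and is turned in A.

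In introns, which took no part in choosing the members, Zfp980 read 483, 483 and 301 in Dicer1-/- against 693, 1773 and 1094 in TFC (log2 fold change -1.42 ± 0.34, limma adjusted p = 0.114). In the Dgcr8 pair it read 591, 758 and 539 against 435, 193 and 292 (1.10 ± 0.34, limma adjusted p = 0.139). Knockout and wild type did not overlap in either pair, in opposite directions. Zfp981 did the same, with 529, 322 and 291 against 806, 907 and 792 in the Dicer pair (-1.18 ± 0.30, limma adjusted p = 0.15), and 374, 399 and 495 against 267, 193 and 201 in the Dgcr8 pair (0.94 ± 0.31, limma adjusted p = 0.164).

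The contrast of the 2 effects was -2.52 ± 0.51 for Zfp980 and -2.12 ± 0.41 for Zfp981 on the log2 scale, with limma adjusted p of 0.139 and 0.111. Across introns 0.00957% of all genes passed this contrast and 0 of 224 members did, with 11 at an unadjusted p under 0.05 (4.91% against 7.13% of all genes). For Zfp982 the intronic values (3254 to 27105) were well above the exonic ones (176 to 2611) in every library. Zfp787, Zfp809, Zfp865 and Zfp971 also had an intronic mean above the exonic one in all 4 groups.

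**Figure D4:**
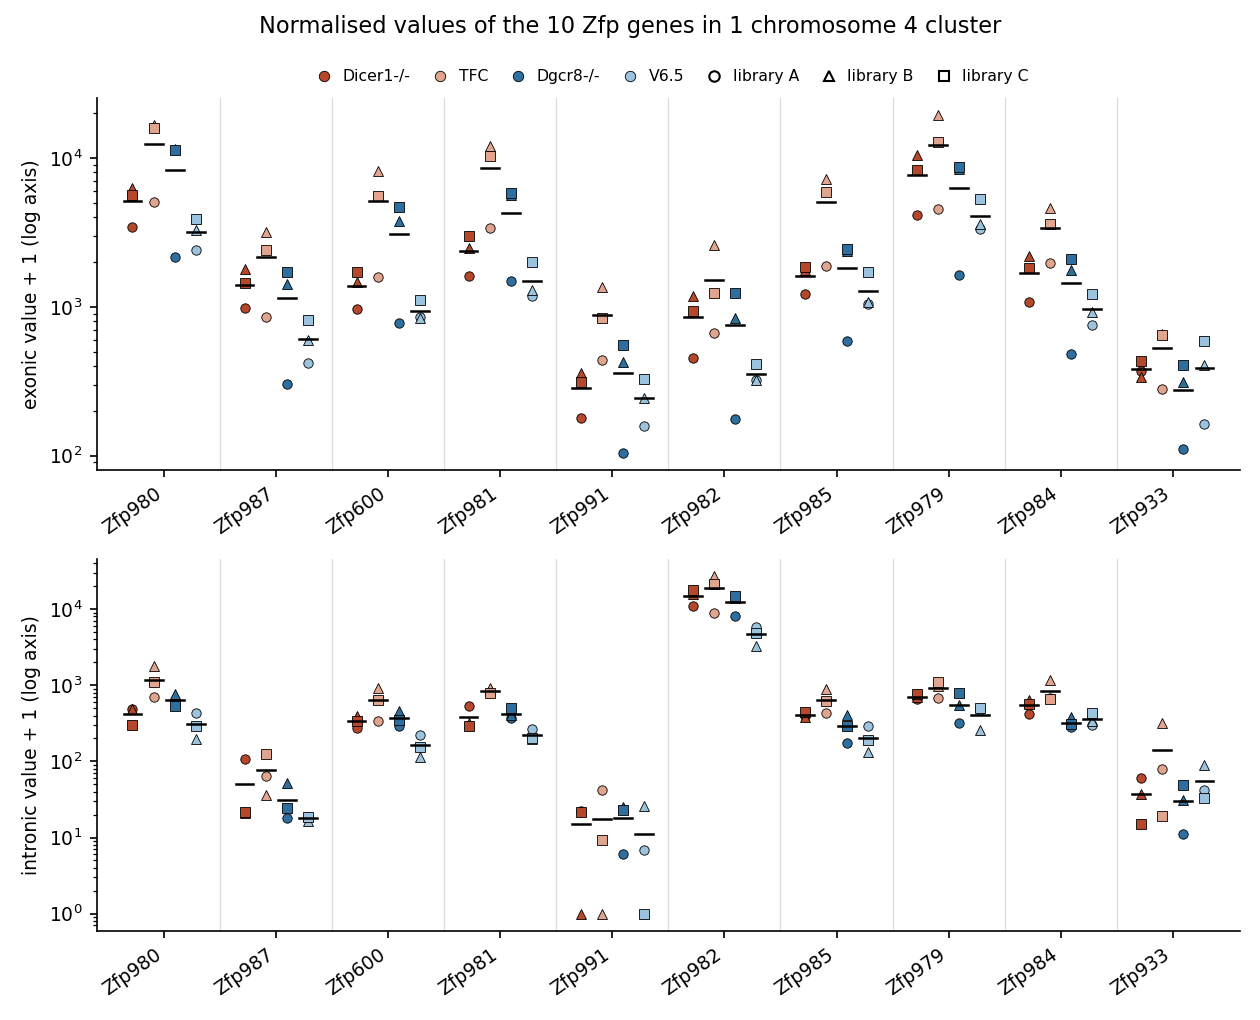
Exonic (top) and intronic (bottom) values plus 1 (log axes) of the 10 clustered members in chromosomal order, for each library (circle A, triangle B, square C) and group (colour), with the authors' group mean as a bar. In exons the TFC mean lies above the Dicer1-/- mean for 10 of 10 genes and the Dgcr8-/- mean above the V6.5 mean for 9 of 10; library A lies lowest in TFC and in Dgcr8-/-.

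The other 6 runs of at least 8 neighbouring members varied. The pattern of lower in Dicer1-/- and higher in Dgcr8-/- recurred in exons in a run of 14 on chromosome 13 (medians -0.36 and 0.26, with 13 and 3 lower) and in a run of 9 on chromosome 7 that ends at Zfp819 (-0.28 and 0.48, with 9 and 1 lower). A run of 10 on chromosome 17 was lower in 10 of 10 in Dicer exons (median -0.58) and at 0.01 in Dgcr8 exons. The run of 20 on the same chromosome that holds Zfp229 and Zfp946 had -0.50 and 0.00. Another on chromosome 7, from Zfp180 to Zfp526, stood at -0.05 and 0.15, with 5 of 10 lower in the Dicer pair, and the run of 12 there that holds Zfp568 at -0.12 and 0.47.

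On chromosome 8 the members and their neighbours were both lower. The 21 members there had exonic medians of -0.56 in the Dicer pair and -0.18 in the Dgcr8 pair, and the 514 other genes of the chromosome had -0.45 and -0.47, with -0.41 and -0.44 in introns. On chromosomes 4, 7, 13 and 17 the other genes had exonic medians between -0.05 and 0.04. Outside chromosome 8, 174 of 244 members were lower in Dicer exons (median -0.29) and 101 in Dgcr8 exons (median 0.12), so the counts given above do not rest on that chromosome.

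By number of miR-181 matches in the coding sequence, the exonic medians of the 2 pairs went apart. Members with 0, 1, 2 or 3, and at least 4 matches numbered 111, 43, 44 and 67. Their Dgcr8 medians were -0.04, 0.09, 0.14 and 0.25, and their Dicer medians -0.23, -0.12, -0.36 and -0.47. From libraries B and C alone, the members with at least 4 matches had a Dgcr8 median of 0.42, and from A alone -0.57. KRAB genes hold more of these matches (74.8% of them had at least 1), and within the class without KRAB the 64 members with a match had 0.18 in the Dgcr8 pair and the 75 without had -0.04, or -0.43 and -0.10 from A alone. Matches in coding sequence were seen in 1126 of the other genes, whose medians were 0.03 in Dicer and 0.04 in Dgcr8.

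For the miR-294 family run in the 3′ UTR the members with and without a match differed in the same direction in both pairs. The 52 with a match had exonic medians of -0.18 in Dicer and 0.23 in Dgcr8, and the 213 without had -0.35 and 0.05. In the other genes the medians were 0.16 and 0.13 with a match and -0.09 and -0.07 without. Of 7 members with a Dicer ratio above 1, 6 held a match, and of 21 with a Dgcr8 ratio above 1, 9 did. Below -1 there were 3 with a match of 31 in Dicer and 0 of 12 in Dgcr8.

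For miR-16 the members with a match stood higher in the Dicer pair and lower in the Dgcr8 pair, and for let-7 higher in both. The 58 members with a miR-16 match in the 3′ UTR had medians of -0.28 in Dicer and 0.04 in Dgcr8, and the 207 without had -0.34 and 0.10. In the other genes the medians were 0.02 and -0.01 with a miR-16 match, and -0.08 and -0.05 without. The 25 members with a let-7 match had -0.19 and 0.26, and the 240 without had -0.33 and 0.07.

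The miR-17 run GCACTTT was in the 3′ UTR of 32 members, 19 of which also held AGCACTT. Those 32 had medians of 0.00 and 0.32, and the 233 without it -0.35 and 0.07. In the other genes the medians were 0.18 in Dicer and 0.16 in Dgcr8 with a miR-17 match, and -0.09 and -0.07 without. From libraries A alone the Dgcr8 medians of the members were -0.21 with a miR-294 match and -0.43 without, both below 0.

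**Figure D5:**
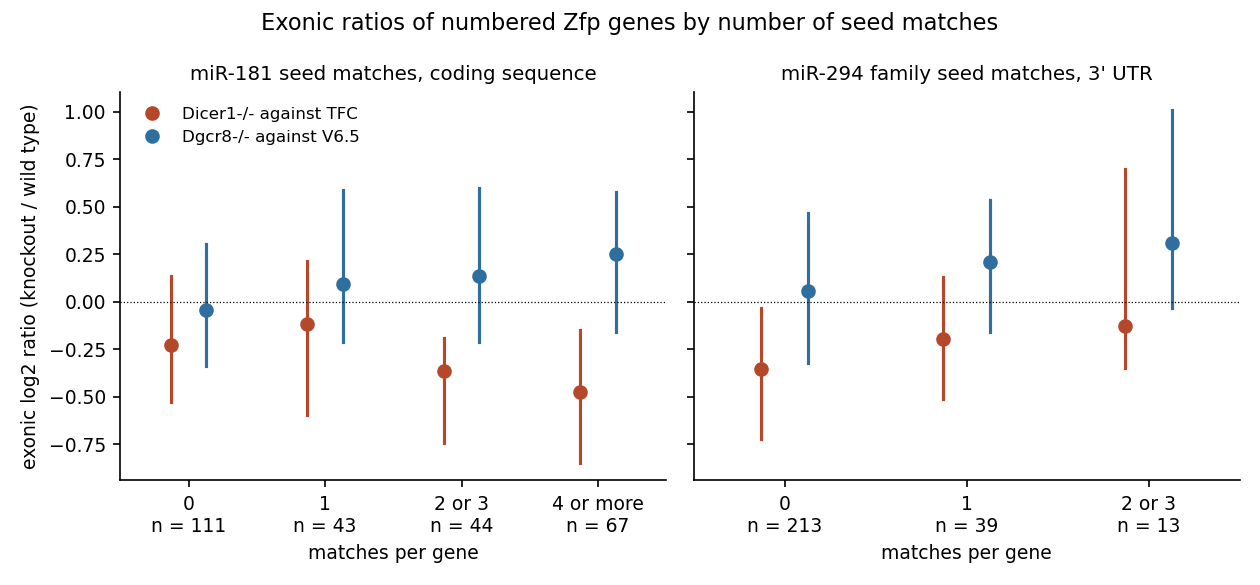
Median (point) and quartiles (line) of the members' exonic log2 ratios by number of miR-181 seed matches in the coding sequence (left) and of miR-294 family matches in the 3′ UTR (right), in both pairs; the number of genes is under each bin. On the left the Dgcr8 median goes from -0.04 to 0.25 and the Dicer median from -0.23 to -0.47, and on the right both are higher with more matches.

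Of the genes tested whose products work with KRAB zinc finger proteins, none was called in any of the 4 tables. Of 20 such genes present (Trim28, Setdb1, the heterochromatin proteins Cbx1, Cbx3 and Cbx5, DNA methyltransferases and others), 18 to 20 were tested per table by limma. Trim28 was not tested in the exons of either pair, nor Atrx in Dgcr8 exons, because not all of their library values were recovered. Of all genes, limma called 1.25% in Dicer exons, 0.353% in Dicer introns, 1.26% in Dgcr8 exons and 1.52% in Dgcr8 introns. With so few partners tested, a count of 0 is near these shares and nothing is read from it. The exonic medians of the 20 were 0.05 in Dicer, with 13 higher and 7 lower, and 0.21 in Dgcr8, with 16 higher and 4 lower. Trim28 had means of 30446 and 31795 in Dicer1-/- and TFC, and Setdb1 7300 and 4991. In Dgcr8-/- and V6.5 the means were 27813 and 23539 for Trim28, and 3917.5 and 3003 for Setdb1.

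Other zinc finger families at the same threshold had Dicer medians on both sides of the members' -0.30. The 27 Zbtb genes had exonic medians of 0.18 in Dicer and 0.39 in Dgcr8, the 13 Klf genes 0.09 and 0.58, the 9 Zscan genes -0.06 and 0.04 and the 11 Zc3h genes -0.26 and -0.02. The 7 Zkscan genes, some of which carry a KRAB box, stood at -0.38 and -0.24. These families are small and their difference from the members was not tested.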

How the data were processed

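Polyadenylated RNA of 12 mouse embryonic stem cell libraries was analysed as 4 groups of 3, knockout against wild type within each pair. The deposited values are a signal: reads normalised by the authors and given as 1 mean per group, for exons and introns apart, per the file headers. TopHat2 2.0.12, DESeq and the build mm10 were used, per the submitters' processing notes, and the counting rule and annotation are not given in the sources used here. Exons and introns of each pair were scaled separately, so tests were made within a table.

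Each deposited mean is a whole-number combination of 3 steps, 1 per library. Solving for the steps gave size factors (0.394 to 2.40 for exons, 0.338 to 1.97 for introns) and the reads of each library for 99.3 to 100% of genes. In simulated columns 100% of single solutions were right. Genes without 1 solution were left out of the fits. Between 60.1 and 80.4% of recovered read numbers were even, so reads are not all independent and no counting interval is given. Letters A, B and C were given from the values: A by the lowest correlation with the others, B and C by size factor, and intronic libraries by shared deviations, which is weak for B and C. No libraries agreed within sampling noise (lowest chi-square per gene 13.5).

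Tests used limma 3.58.1 in R 4.3.3 on log2(value + 1), with a variance trend, keeping genes whose mean over 6 libraries reached 10, and Benjamini-Hochberg adjusted p under 0.05 over all genes as called. Fold changes are on the log2(value + 1) scale, which understates those of low genes. An exact permutation test of 3 against 3 cannot go below 0.1. In simulated introns, limma recovered 47% (Dicer) and 38% (Dgcr8) of 200 genes changed 2-fold and 100% at 4-fold, with 11622 and 10744 genes fitted at 2-fold. The simulation changed only genes with higher intronic means. It gave every gene the same relative spread beyond sampling and held no shift of library A. These shares may therefore not hold for the real libraries, and a member not called may still differ by 4-fold. Ratios marked as of group means used the authors' means plus 1.

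Classes, seed matches and positions came from GENCODE vM21 (GRCm38), in which 265 of 265 members had a coding sequence. A finger is C, 2 to 4 residues, C, 12 residues, H, 3 to 5 residues, H. The classes had been planned from RefSeq proteins, which were not used here. Members, gene lists and tests were chosen with earlier results of these data known. Named genes are members called in introns, the 8 highest and 8 lowest by mean exonic ratio, those at the threshold, and listed regulators and partners. Members of the chromosome 4 and other clusters, Zfp936, Zfp207, Zfp330, Zfp994 and members called only under an alternative were named after their values were seen.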

Additional observations from a re-analysis of the deposited data

Results flagged for a closer look

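In introns, 3 members had knockout and wild-type libraries that did not overlap in either pair, in opposite directions. These are 1.34% of the 224 members tested in both pairs, where 0.612% of 10450 genes showed the same, and this difference was not tested. Zfp658, a KRAB gene on chromosome 7, read 25.2, 42.3 and 41.6 in Dicer1-/- against 0.508, 20.02 and 16.8 in TFC, and 11.95, 5.73 and 12.7 in Dgcr8-/- against 38.5, 49.5 and 44.9 in V6.5. The difference of its 2 log2 ratios of group means was 3.5, and the limma contrast of the effects had an adjusted p of 0.685. For Zfp980 and Zfp981, in the chromosome 4 cluster, the differences were -2.52 and -2.07, with adjusted p of 0.139 and 0.111 in the same contrast. None of these 3 differences passed the test over all genes.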

How the results depend on the processing

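No paired analysis was possible because the deposited columns are group means, and the libraries recovered from them carry no replicate number of the labels, so no replicate block could be fitted. In Dicer introns the count of members called, 0, became 2 with a term for library A (Zfp57 higher, Zfp980 lower) and 1 with limma-voom. Both fits were added after seeing the data. The count was 0 to 1 when 1 library was left out, with 1 (Zfp229) without TFC library B. With the term, 0.412% of members were higher and 0.412% lower, against 0.551% and 0.232% of all genes. With limma-voom 0.412% were higher against 0.439%, and without TFC library B 0.418% against 0.342%. In Dgcr8 introns the count, 1, became 4 with a pseudocount of 4, 2 without the filter on low values and 2 with libraries centred on their median. Members called higher were 1.76%, 0.769% and 0.881% in these 3 fits, against 1.48%, 0.929% and 1.19% of all genes. The count became 8 with the library A term, 3 with limma-voom and 7 from libraries B and C only (also added later, shares given above). It was 0 to 4 when 1 library was left out, with 0 without Dgcr8-/- library B. Without Dgcr8-/- library A it was 4 (1.75% of members against 1.18% of all genes higher). Without V6.5 library A it was 3 (1.33% against 1.23%). Without the variance trend the count stayed at 1 (0.441% of members against 0.456% of all genes higher). The member called was then Zfp93, and the limma adjusted p of Zfp951 was 0.0769. The contrast of the 2 effects called 0 members, 1 with the library A term (Zfp981), and 0 to 2 when 1 library was left out, with 2 (Zfp980 and Zfp981) without V6.5 library A. Those calls had a lower effect in the Dicer pair than in the Dgcr8 pair. They were 0.446% and 0.893% of members, against 0.00957% and 0.115% of all genes, a difference that was not tested. Members lower in Dicer exons numbered 165 to 197 when 1 library was left out, and in Dgcr8 exons 94 to 139 of 265. From libraries A only, 187 were lower in Dgcr8 exons. With thresholds of 50 and 200 in place of 100 the counts lower were 217 of 302 and 154 of 212 in Dicer, and 138 and 93 in Dgcr8. A stricter and a looser KRAB pattern gave 118 and 123 genes in place of 119. Tests by edgeR and DESeq2 had been planned and were not run. Limma-voom was the only fit made on the recovered reads. The lowest intronic depth, in V6.5 library A, limits the precision of the Dgcr8 introns.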
